A study of Mus musculus with 5 samples.

Results

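The genes described here encode chaperones and folding factors of the endoplasmic reticulum (ER), the compartment in which secreted and membrane proteins fold. The 10 genes were taken by symbol (Hspa5, Hsp90b1, Pdia3, Pdia4, Pdia6, Calr, Canx, Sel1l, Creld2 and Fkbp11), and every probe set annotated to one of these symbols alone was taken. This gave 14 of the 12488 probe sets on an Affymetrix mouse array, since Pdia6 has 3 and Canx and Sel1l have 2 each. Of the 14, 13 passed the filter on low intensity, and the exception was the only Calr probe set. Messenger RNA was measured on 5 arrays, 1 per cell line. A20, a mouse line, carries the label of a memory B cell line. Subclones D6 and B5 are AxJ plasma cells, a mouse line of the antibody-secreting stage, stably transfected to overexpress the RNA-binding protein hnRNP-F. The controls were AxJ cells transfected to overexpress the related protein hnRNP-H, and AxJ cells transfected with empty vector. All lines grew in log phase in IMDM medium with 5% fetal calf serum, and all 4 AxJ lines, but not A20 by its label, grew with 1 mg/ml of the selection drug G418. The submitters chose clones by western blot for high overexpression and describe a reduced share of the secreted form of heavy chain mRNA in both hnRNP-F clones, so each overexpressing array stands for 1 selected clone.

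ER chaperones bind proteins as they enter the compartment. HSP70 and HSP90 family members hold unfolded chains, protein disulfide isomerases form and reshuffle disulfide bonds, the lectins calnexin and calreticulin retain glycoproteins until they are folded, and the degradation machinery removes those that fail. Plasma cells secrete antibody in bulk, and their differentiation is known to go with a large ER and with abundant folding factors. Many of these genes carry an ER stress response element in the promoter, a CCAAT box and a CCACG box at a fixed spacing, which is bound by NF-Y together with ATF6 or XBP1 in the unfolded protein response.

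The lines were checked against marker genes. The summed intensity of 6 plasma cell markers was 2547 in A20, against 5999 to 8209 in the AxJ lines, and that of the mature B cell markers on the array was 7221 in A20, against 614 to 914 in the AxJ lines. Such sums weigh the brightest probe sets most. Jchain alone read 1749 in A20 and 3919 to 5478 in the AxJ lines, and the B cell marker Cd79b 956 in A20 and 432 to 757 in the AxJ lines. Prdm1, the plasma cell transcription factor Blimp-1, was 3.16 in A20 and 92.2 to 157 in the AxJ lines. Its A20 value lay below the filter, which Prdm1 passed through the AxJ lines alone. Of 5 T cell markers, Cd2, Cd3e, Cd3g and Cd8a were below the filter on all arrays, and the summed T cell level was 57.5 in A20 and 57.2 to 113 in AxJ lines. Myeloid markers summed to 151 in A20 and 157 to 372 in AxJ lines (Itgam below the filter throughout), erythroid markers to 71.7 and 64.8 to 117 (Alas2 below the filter throughout), and stromal markers to 299 and 431 to 568. The array had no probe set for Hnrnpf. Hnrnph1 had an intensity of 1520 in A20, 985 in D6, 726 in B5, 1058 in the line transfected for hnRNP-H and 1447 in empty vector. It was not higher in the line labelled hnRNP-H than in empty vector, and the sources used here do not say whether its probes match the transfected construct, so it checks nothing. The Gapdh control probe sets gave a 5' to 3' intensity ratio, a measure of how complete the labelled RNA was, of 0.384 in A20, 0.683 in D6, 0.181 in B5, 0.866 in the hnRNP-H line and 0.212 in empty vector, so D6 and the hnRNP-H line read high and B5 and empty vector low.

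The promoter sequences are given first, because the ER stress response element is what most of these genes share outside the arrays. It was searched on both strands as CCAAT, 9 bases of any kind, then CCACG, in the 250 bases upstream of each start site (RefSeq, GRCm38.p6), and all 10 genes had a promoter entry. An exact match stood in 6 of the 10 genes, against 33 of 27025 mouse promoters (0.122%). With up to 1 mismatch it stood in 9 of the 10, against 355 promoters (1.31%). The CCAAT box alone was in 9 of the genes and in 34.5% of promoters, the CCACG box alone in 7 and in 28.2%, and TGACGTGG, a related XBP1 and ATF6 element, in none of the 10 and in 0.496%. The matched sites are shown 5′ to 3′ in the direction of the motif, with the 2 boxes in capitals, the spacer in lower case, and a lower-case letter inside a box where the site departs from the motif.
Hspa5: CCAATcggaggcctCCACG
Hsp90b1, nearer site: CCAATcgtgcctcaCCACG
Hsp90b1, middle site: CCAATcggaactgtCCAgG
Hsp90b1, farther site: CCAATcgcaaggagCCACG
Pdia3: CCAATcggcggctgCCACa
Pdia4: CCAATcacgggctgCCACt
Pdia6: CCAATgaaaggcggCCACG
Calr: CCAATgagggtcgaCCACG
Canx: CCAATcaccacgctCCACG
Sel1l: CCAATtagctggggCCAtG
Creld2: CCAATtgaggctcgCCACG
The sites differed in spacer, in strand and in distance. The centre of the motif lay 56 bases upstream of the Hspa5 start, on the strand of the gene (chr2:34772025-34772043). In Hsp90b1 the exact sites lay 98 and 203 bases upstream (chr10:86705533-86705551 and chr10:86705638-86705656), on opposite strands, with the 1-mismatch site at 163 bases between them. The distance was 89 bases in Pdia6, 117 in Creld2, 136 in Canx and 153 in Calr. The 1-mismatch sites lay at 20 bases in Pdia3, 99 in Pdia4 and 182 in Sel1l. Fkbp11 had no match with up to 1 mismatch in either of its 2 promoter windows. These matches describe the sequence alone, and no binding was measured.

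The upstream windows of Hspa5 and Hsp90b1, the HSP70 and HSP90 chaperones of the ER, of Creld2, a folding factor with a site on the opposite strand, and of Fkbp11, which had no site and the largest difference between lines, are printed along the strand of the gene, ending at the base before the start site, with the matched sites in capitals, the 1-mismatch site left in lower case.
Hspa5 (chr2:34771840-34772089, plus strand): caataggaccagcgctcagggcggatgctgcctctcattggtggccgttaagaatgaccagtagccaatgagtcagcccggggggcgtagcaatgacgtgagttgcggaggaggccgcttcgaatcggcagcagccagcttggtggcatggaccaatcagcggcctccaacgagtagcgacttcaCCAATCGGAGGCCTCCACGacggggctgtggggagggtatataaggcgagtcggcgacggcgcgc
Hsp90b1 (chr10:86705445-86705694, minus strand): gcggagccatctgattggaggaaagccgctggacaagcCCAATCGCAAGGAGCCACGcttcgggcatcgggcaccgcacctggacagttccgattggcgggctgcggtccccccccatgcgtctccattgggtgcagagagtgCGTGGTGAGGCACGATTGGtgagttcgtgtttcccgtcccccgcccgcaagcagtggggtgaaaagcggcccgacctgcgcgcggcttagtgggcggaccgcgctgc
Creld2 (chr15:88819396-88819645, plus strand): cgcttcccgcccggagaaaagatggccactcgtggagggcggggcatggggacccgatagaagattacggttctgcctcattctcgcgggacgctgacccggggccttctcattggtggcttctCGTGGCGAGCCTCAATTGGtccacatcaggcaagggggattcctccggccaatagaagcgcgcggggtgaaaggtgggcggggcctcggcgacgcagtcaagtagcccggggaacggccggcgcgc
Fkbp11 (chr15:98728199-98728448, minus strand): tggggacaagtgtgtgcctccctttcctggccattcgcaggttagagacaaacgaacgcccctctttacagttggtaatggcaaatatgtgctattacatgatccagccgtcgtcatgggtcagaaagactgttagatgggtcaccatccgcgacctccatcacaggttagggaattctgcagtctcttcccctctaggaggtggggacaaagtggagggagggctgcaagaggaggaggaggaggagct
All 4 windows are upstream sequence only. The share of G and C in them was 62.4% for Hspa5, 66.8% for Hsp90b1, 66.0% for Creld2 and 53.6% for Fkbp11, the lowest of the 10 genes.

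The first comparison asked how the ER folding genes differ between a memory B cell line and plasma cells. A20 was set against the AxJ controls, that is, the hnRNP-H line and empty vector, and a difference is the log2 intensity of A20 minus the mean of both controls. The intensities of 7 of the 13 probe sets measured, from 6 of 9 genes (Hspa5, Hsp90b1, Pdia4, Sel1l, Creld2 and Fkbp11), fell past the threshold, a limma adjusted p under 0.05, and none rose. Over all 9108 probe sets tested, 273 fell (3.0%) and 263 rose (2.89%), and over 6638 genes at 1 probe set each, 225 fell (3.39%) and 213 rose (3.21%). The median difference was -2.26 over the 13 probe sets and -2.51 over the 9 genes, against -0.04 over all probe sets and -0.03 over all genes. A20 read below all 4 AxJ lines in 11 of the 13, against 28.9% of all probe sets, and above all 4 in none, against 26.0%. Fkbp11 passed the filter through its AxJ intensities alone and so had to differ, and it is part of these counts and medians. A lower intensity in a culture cannot tell fewer expressing cells from less RNA per cell, and A20 differs from AxJ in origin, transfection and drug selection at the same time, which cannot be told apart.

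**Figure D1:**
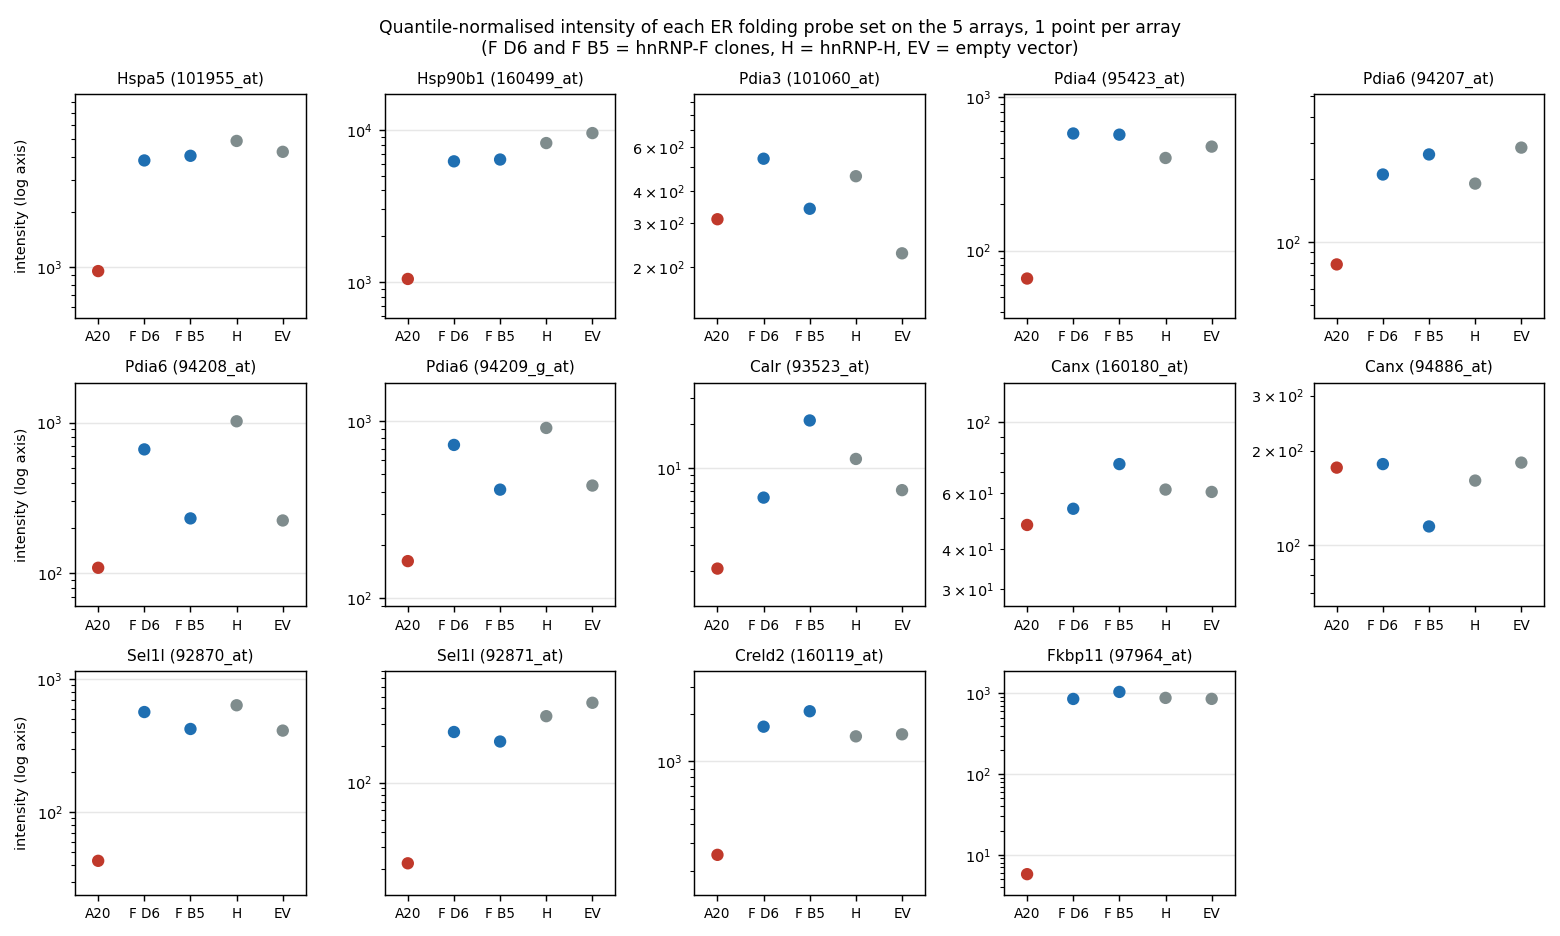
Quantile-normalised intensity (log axis, arbitrary units) of each of the 14 probe sets in A20, the hnRNP-F clones D6 and B5, the hnRNP-H line and empty vector, 1 point per array and with each panel on its own range. A20 lies below the 4 AxJ lines for Hspa5, Hsp90b1, Pdia4, Sel1l, Creld2 and Fkbp11, and inside their range for Pdia3 and for the Canx probe set 94886_at, and all Calr values are under 21.8, the filter.

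Hspa5 encodes BiP, the HSP70 chaperone of the ER lumen, which also holds the sensors of the unfolded protein response inactive. Its intensity was 949 in A20, 3827 in D6, 4057 in B5, 4892 in the hnRNP-H line and 4265 in empty vector. A20 was the only low array, and the AxJ lines spanned 0.35 log2 units. The difference was -2.26 (SE 0.28, adjusted p = 0.00312), a 4.79-fold lower level, with a 95% interval of -2.89 to -1.63. Hsp90b1 encodes GRP94, the HSP90 chaperone of the ER lumen, which folds a narrower set of clients such as integrins and Toll-like receptors. It read 1047 in A20, 6222 in D6, 6394 in B5, 8207 in the hnRNP-H line and 9547 in empty vector, so every AxJ line stood far above A20. The difference was -3.07 (SE 0.27, adjusted p = 0.000652), 8.41-fold lower in A20.

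The protein disulfide isomerases did not move alike. Pdia4 encodes ERp72, an isomerase with several thioredoxin domains. Its intensity was 65.8 in A20, 579 in D6, 569 in B5, 401 in the hnRNP-H line and 476 in empty vector. A20 was the single low array, and the difference was -2.62 (SE 0.32, adjusted p = 0.00323), 6.13-fold lower in A20. Pdia3 encodes ERp57, the isomerase that works on glycoproteins held by calnexin and calreticulin. It read 310 in A20, 538 in D6, 341 in B5, 459 in the hnRNP-H line and 227 in empty vector. A20 lay inside the AxJ range, and the difference of -0.06 (SE 0.47, adjusted p = 0.970) had a 95% interval of -1.14 to 1.02, so a difference of 2-fold in either direction lies within it.

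Pdia6 encodes P5, an isomerase that binds BiP. Its probe set 94207_at read 78.4 in A20, 211 in D6, 263 in B5, 191 in the hnRNP-H line and 284 in empty vector. A20 was the lowest array, but the difference of -1.50 (SE 0.39, adjusted p = 0.0646) missed the threshold. Probe set 94208_at read 109 in A20, 664 in D6, 231 in B5, 1020 in the hnRNP-H line and 224 in empty vector. Probe set 94209_g_at, designed from the same transcript as 94208_at and so not independent of it, read 162 in A20, 735 in D6, 410 in B5, 916 in the hnRNP-H line and 433 in empty vector. For both, D6 and the hnRNP-H line stood high, B5 and empty vector lay between them and A20, and the differences of -2.08 (SE 0.84, adjusted p = 0.218) and -1.92 (SE 0.51, adjusted p = 0.0659) did not pass. With the log2 Gapdh ratio as a covariate, which leaves 1 residual degree of freedom, all 3 Pdia6 probe sets passed (adjusted p = 0.0395, 0.0173 and 0.0142). Over all alternatives the adjusted p ran from 0.0101 to 0.178 for 94207_at, 0.000151 to 0.448 for 94208_at and 0.000183 to 0.232 for 94209_g_at. Against the hnRNP-H line and D6 alone, the arrays of high Gapdh ratio, 94208_at differed by -2.85. Against empty vector and B5 alone it differed by -1.02.

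Calnexin, encoded by Canx, is the membrane lectin of the glycoprotein folding cycle, and calreticulin, encoded by Calr, its soluble counterpart. The Canx probe set 160180_at read 47.6 in A20, 53.5 in D6, 73.9 in B5, 61.5 in the hnRNP-H line and 60.4 in empty vector. A20 was the lowest by a small margin, and the difference was -0.32 (SE 0.45, adjusted p = 0.776, 95% interval -1.34 to 0.71). Probe set 94886_at read 177 in A20, 181 in D6, 114 in B5, 160 in the hnRNP-H line and 183 in empty vector. Here A20 lay within the AxJ range and differed by 0.04 (SE 0.40, adjusted p = 0.976, 95% interval -0.88 to 0.96). The Calr probe set 93523_at read 2.09 in A20, 6.32 in D6, 21.1 in B5, 11.6 in the hnRNP-H line and 7.10 in empty vector. Its highest value lay just under the filter of 21.8, so its difference was not tested at this filter. The signal was too dim to compare between lines, and from this probe set alone little Calr RNA cannot be told from poor detection.

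Sel1l encodes the adaptor of the HRD1 ubiquitin ligase in ER-associated degradation. Its probe set 92870_at read 43.0 in A20, 565 in D6, 421 in B5, 636 in the hnRNP-H line and 410 in empty vector. Probe set 92871_at read 22.2 in A20, 258 in D6, 216 in B5, 346 in the hnRNP-H line and 445 in empty vector. Both placed A20 alone at the bottom, with differences of -3.38 (SE 0.39, adjusted p = 0.00216) and -3.80 (SE 0.37, adjusted p = 0.000997), that is, 10.4-fold and 13.9-fold lower in A20. The A20 value of the second was just inside the filter, and its difference ran from -4.09 to -2.97 over the alternative settings.

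Creld2 encodes a secreted and ER-resident protein induced by ER stress, and Fkbp11 a membrane-anchored member of the FK506-binding prolyl isomerases. Creld2 read 253 in A20, 1669 in D6, 2095 in B5, 1447 in the hnRNP-H line and 1492 in empty vector. A20 stood well apart, with a difference of -2.51 (SE 0.30, adjusted p = 0.00260), 5.69-fold lower. Fkbp11 read 5.75 in A20, 855 in D6, 1045 in B5, 881 in the hnRNP-H line and 857 in empty vector. The AxJ lines lay within 0.29 log2 units of each other, while the A20 value was below both the filter and the added constant of 6.55. The difference was -6.15 (SE 0.32), and its size depends on that constant, with a range of -7.01 to -4.58 over the alternatives. Fkbp11 passed the filter through its AxJ intensities alone, so its call was fixed by the filter.

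**Figure D2:**
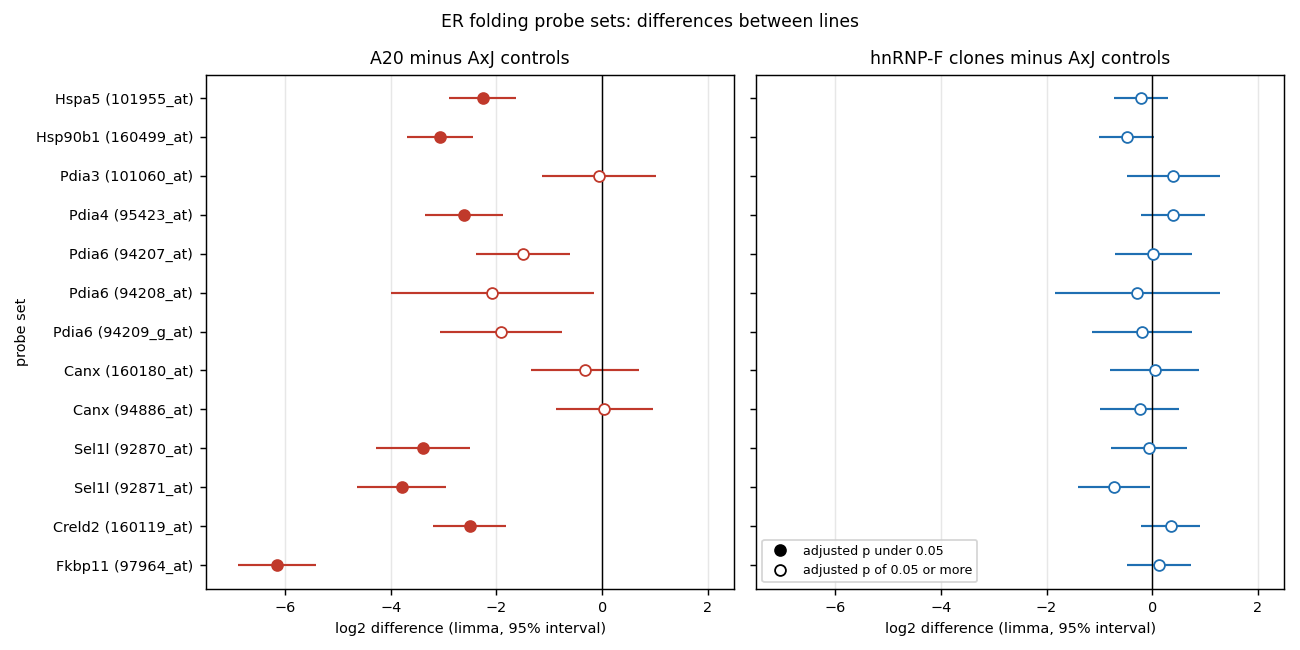
Log2 difference with its 95% interval for the 13 probe sets measured, A20 minus the AxJ controls on the left and the hnRNP-F clones minus the AxJ controls on the right, filled where the limma adjusted p is under 0.05. For A20, 7 points are filled and all of these lie at -2.26 or lower, and for the hnRNP-F clones none is filled and all lie between -0.72 and 0.40.

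The rest of the ER folding pathway was followed with 7 gene lists of 100 genes, 67 of them measured at 1 probe set per gene. Of the 67 genes, 10 fell in A20, 1 rose and 56 did not pass, against 3.39% that fell and 3.21% that rose over all 6638 genes. Of the 67, 44 lay below all 4 AxJ lines, against 29.4% of all genes, and the median difference was -0.83, against -0.03. Among ER HSP70 and HSP90 co-chaperones 1 of 9 fell (median -1.38), namely Cnpy2, a saposin-like ER protein, at 288 in A20 and 749 to 1016 in the AxJ lines (-1.38, SE 0.30, adjusted p = 0.0351). Among disulfide formation genes 4 of 13 fell (median -1.20). Pdia5, an isomerase, read 5.86 in A20 and 82.1 to 130 in the AxJ lines (-3.15, SE 0.47, adjusted p = 0.00692), a size that ran from -3.93 to -1.84 over the alternatives because A20 lay below the added constant. Prdx4, an ER peroxiredoxin, differed by -2.26 (SE 0.34, adjusted p = 0.00792), and Erp44, which retains oxidases and IgM intermediates, by -1.95 (SE 0.35, adjusted p = 0.0177). The other gene of the 4 was Selenof, named outside the rule.

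Of the genes for N-glycan addition and the lectin cycle, 3 of 15 fell (median -0.85), and all 3 encode subunits of the oligosaccharyltransferase, which attaches the glycan. Dad1 read 673 in A20 and 1930 to 3336 in the AxJ lines (-1.90, SE 0.37, adjusted p = 0.0215), although its second measured probe set did not pass (-1.18, adjusted p = 0.184). Ddost differed by -1.68 (SE 0.30, adjusted p = 0.0170) and Rpn2 by -1.24 (SE 0.30, adjusted p = 0.0494). Of 2 ER prolyl isomerases measured, Ppib, which encodes cyclophilin B, fell (-1.63, SE 0.35, adjusted p = 0.0301). No gene of the ER-associated degradation list, which leaves out Sel1l, described above, passed limma's adjusted threshold (0 of 10, median -1.23). Of the 10, 8 were lower at an unadjusted p under 0.05, against 10.6% of all genes. Below all 4 AxJ lines lay 8 of the 10, against 29.4%. No sensor or regulator of the unfolded protein response passed either (0 of 10, median -0.36), and none was past an unadjusted p of 0.05. Xbp1, whose product binds the ER stress response element and which was picked out here after its values were seen, read 465 in A20, 1070 in D6, 1129 in B5, 1302 in the hnRNP-H line and 539 in empty vector. Empty vector lay close to A20, and the difference was -0.84 (SE 0.47, adjusted p = 0.393).

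ER calcium binding and pump genes moved in both directions, with 1 fall and 1 rise among 8 measured and a median of -0.25 whose sign depended on the setting (-0.88 to 0.16). Nucb1, a calcium-binding nucleobindin, read 120 in A20 and 366 to 536 in the AxJ lines (-1.74, SE 0.36, adjusted p = 0.0286). Itpr2, an inositol trisphosphate receptor that releases calcium from the ER, read 469 in A20 and 5.04 to 18.6 in the AxJ lines (4.46, SE 0.64, adjusted p = 0.00615). All 4 AxJ values of Itpr2 lay below the filter, so the size of this difference depends on the added constant and ran from 3.41 to 5.02 over the alternatives. Another Itpr2 probe set, designed from the same transcript as the one given and so not independent, differed by 3.47 (SE 0.69, adjusted p = 0.0242). The remaining Itpr2 probe sets lay below the filter on every array, with A20 values of 8.69 and 8.83, and were not tested. The rise therefore rests on probe sets from 1 transcript. Chaperones outside the ER served for comparison. Of 17 cytosolic and mitochondrial chaperone genes none fell (1 at an unadjusted p under 0.05), 2 rose and the median was 0.18. The genes that rose encode subunits of the cytosolic chaperonin CCT. Cct4 read 4852 in A20 and 970 to 1093 in the AxJ lines (2.23, SE 0.29, adjusted p = 0.00358), and Cct7 read 3002 in A20 and 802 to 1638 in the AxJ lines (1.57, SE 0.34, adjusted p = 0.0336). Genes of these lists could pass the filter through one side alone, as Pdia5 did through AxJ cells and Itpr2 through A20, so both had to differ and the counts and medians are descriptions. Over 15 alternative settings the calls of Prdx4 and Cct4 held in 14, Erp44 in 12, Ddost in 11, Dad1 in 10, Cnpy2, Ppib, Nucb1 and Cct7 in 7, and Rpn2 in 5.

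**Figure D3:**
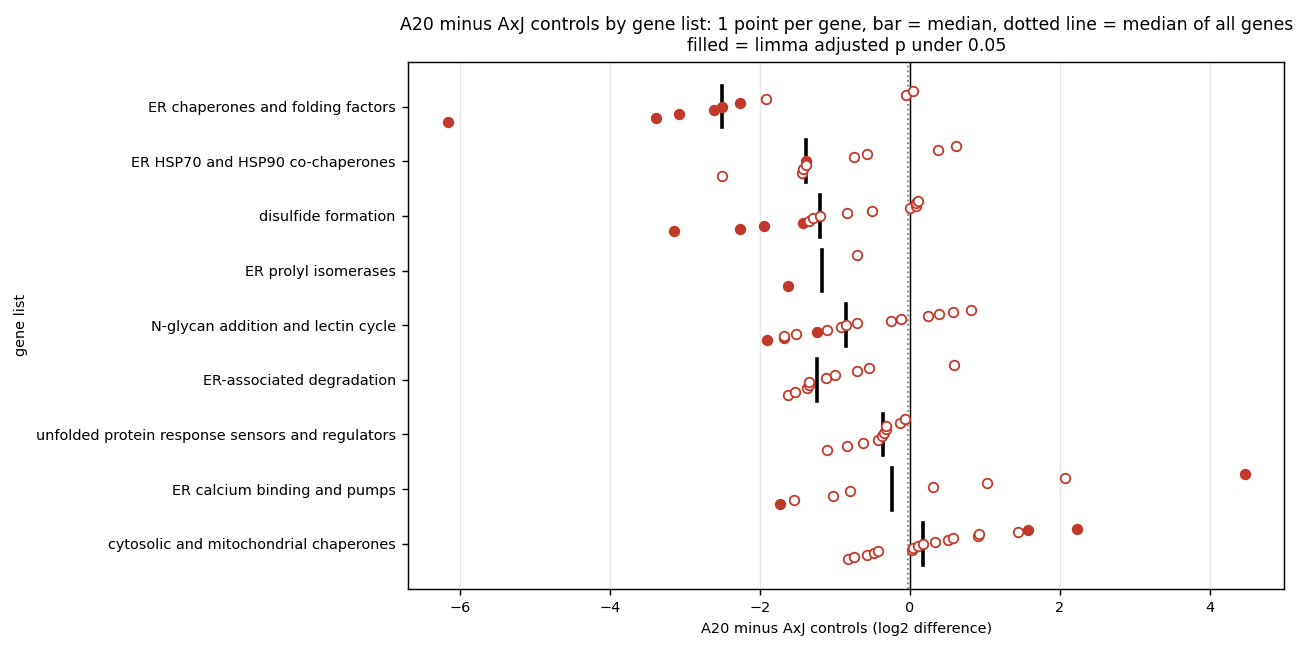
Log2 difference of A20 minus the AxJ controls for each measured gene of the ER chaperones and folding factors, the 7 other ER lists and the cytosolic and mitochondrial chaperones, 1 point per gene and filled where the limma adjusted p is under 0.05, with the median of each list as a bar and that of all genes (-0.03) as a dotted line. The medians run from -2.51 for the ER chaperones and folding factors to 0.18 for the cytosolic and mitochondrial chaperones.

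The genes with an exact ER stress response element were also set side by side, whether or not they were among the 10. Of the genes with a match, 10 were measured, 3 of these fell in A20, none rose, and the median difference was -1.39, against 3.39% of all genes that fell and an all-gene median of -0.03. Those counts include 5 of the 10 genes of this report. The 5 outside the 10 had a median of -0.51 and none passed the threshold. At an unadjusted p under 0.05, 2 of them were lower and 1 higher, against 10.6% lower and 10.2% higher over all genes. The 5 were Dnajc3, a BiP co-chaperone (-1.43, adjusted p = 0.0987), Ero1b, an ER oxidase (-1.35, adjusted p = 0.0611), Pan2 (-0.51), Ptgdr2 (-0.40) and Adcy3 (1.57), named for the motif and not for their values. Dnajc3 and Ero1b belong to the other ER lists described above, so the 5 are not all from outside ER folding. Among the 10 ER folding genes themselves, Hspa5, Hsp90b1 and Creld2 had an exact site and fell. Canx and Pdia6 had an exact site and no difference past the threshold, although A20 was the lowest array in every Pdia6 probe set. Pdia4 and Sel1l, with a 1-mismatch site, fell, as did Fkbp11, which had no site and had to differ. Pdia3, with a 1-mismatch site, did not pass, and Calr, with an exact site, was not tested. A link between site and difference was not tested.

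The second comparison asked whether these genes differed between the hnRNP-F clones and the controls within AxJ cells. The hnRNP-H line is among the controls, so a change shared by hnRNP-F and hnRNP-H lines would show only in part. This comparison uses the same control arrays as the first, so the values of both comparisons are given separately. No probe set of the 13 passed the threshold, and over all 9108 probe sets 1 did (0.0110%), Rpl41, a ribosomal protein gene named here after its value was seen. At an unadjusted p under 0.05 the count was 1 of the 13, Sel1l 92871_at, against 5.78% of all probe sets. Both clones lay below both controls for 3 of the 13 (Hspa5, Hsp90b1 and Sel1l 92871_at), against 19.3% of all probe sets, and above both for 2 (Pdia4 and Creld2), against 18.2%. The median difference was -0.06 over the 13 and 0.01 over all probe sets.

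Sel1l 92871_at differed by -0.72 in the hnRNP-F clones (SE 0.30, adjusted p = 0.788), from the D6 and B5 values of 258 and 216 against 346 in the hnRNP-H line and 445 in empty vector. The other Sel1l probe set, 92870_at, did not share this, at -0.06 (SE 0.32, adjusted p = 0.978), with D6 and B5 inside the range of the controls. Hsp90b1 differed by -0.49 (SE 0.22, adjusted p = 0.788, 95% interval -1.0 to 0.02). In the intensities as the authors scaled them, Hsp90b1 read 5838 in D6 and 7551 in B5, against 6993 in the hnRNP-H line and 10972 in empty vector, so the clones overlapped the controls there. Hspa5 differed by -0.21 (SE 0.23, adjusted p = 0.854, 95% interval -0.73 to 0.30). The interval leaves out a 2-fold change in either direction for this gene.

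Pdia4 differed by 0.39 in the hnRNP-F clones (SE 0.27, adjusted p = 0.799), Creld2 by 0.35 (SE 0.25, adjusted p = 0.800) and Pdia3 by 0.40 (SE 0.39, adjusted p = 0.834). Fkbp11, the gene with the widest gap between A20 and AxJ cells, differed by 0.12 (SE 0.26, adjusted p = 0.944, 95% interval -0.48 to 0.72). The Pdia6 probe sets differed by 0.02 for 94207_at, -0.29 for 94208_at and -0.20 for 94209_g_at, with the 95% interval of 94208_at spanning -1.85 to 1.28. The Canx probe sets differed by 0.04 for 160180_at and -0.24 for 94886_at. No gene of the 7 other ER lists or of the cytosolic and mitochondrial chaperones passed in the hnRNP-F clones, where 5 of 84 were lower and 5 higher at an unadjusted p under 0.05, against 3.0% lower and 2.92% higher over all genes. The list members that differed most, none of them past the threshold, were Man1a, a glycan-trimming mannosidase (-1.48, SE 0.41, adjusted p = 0.788), whose second probe set differed by -0.32, Edem3, a mannosidase of ER-associated degradation (-1.23, SE 0.34, adjusted p = 0.788), and Sdf2, a BiP co-chaperone subunit (1.06, SE 0.35, adjusted p = 0.788). In the other lists the most distant gene was nearer to the controls: Qsox1 (-0.97), Hspa4 (-0.83), Atp2a2 (-0.71), Atf6b (0.51) and Fkbp2 (0.41). Qsox1 read above the filter in empty vector alone (23.1). The other Hspa4 probe sets differed by -0.43 to -0.05, and the other Atf6b probe set by 0.21.

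With 1 array on each side, the line labelled hnRNP-H and empty vector were compared by fold alone, without a test. At least 2-fold higher in the hnRNP-H line were 2 of the 13 probe sets, against 9.97% of all probe sets, and at least 2-fold lower were none, against 8.18%. Both were Pdia6 probe sets, 94208_at at 1020 in the hnRNP-H line and 224 in empty vector (2.15 on the log2 scale), and 94209_g_at at 916 and 433 in the same order of lines (1.07). Pdia3 lay just under that line, at 459 in the hnRNP-H line and 227 in empty vector (0.99). The remaining Pdia6 probe set, 94207_at, ran the other way, at 191 in the hnRNP-H line and 284 in empty vector (-0.56).

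Between the hnRNP-F clones, D6 was at least 2-fold higher than B5 for 1 of the 13 probe sets, against 6.23% of all, and at least 2-fold lower for none, against 5.73%. This was again Pdia6 94208_at, at 664 in D6 and 231 in B5 (1.5). Pdia6 94209_g_at differed by 0.83, Pdia3 by 0.65 and Pdia6 94207_at by -0.31, with the same signs as between the hnRNP-H line and empty vector. The Gapdh 5' to 3' ratio was 0.683 in D6 and 0.181 in B5, and 0.866 in the hnRNP-H line and 0.212 in empty vector, so the high ratio stood with the higher signal of 94208_at in both pairs. Its part in these differences was not tested. Between arrays of like ratio, 94208_at differed by 0.04 for B5 minus empty vector and by -0.62 for D6 minus the hnRNP-H line.

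**Figure D4:**
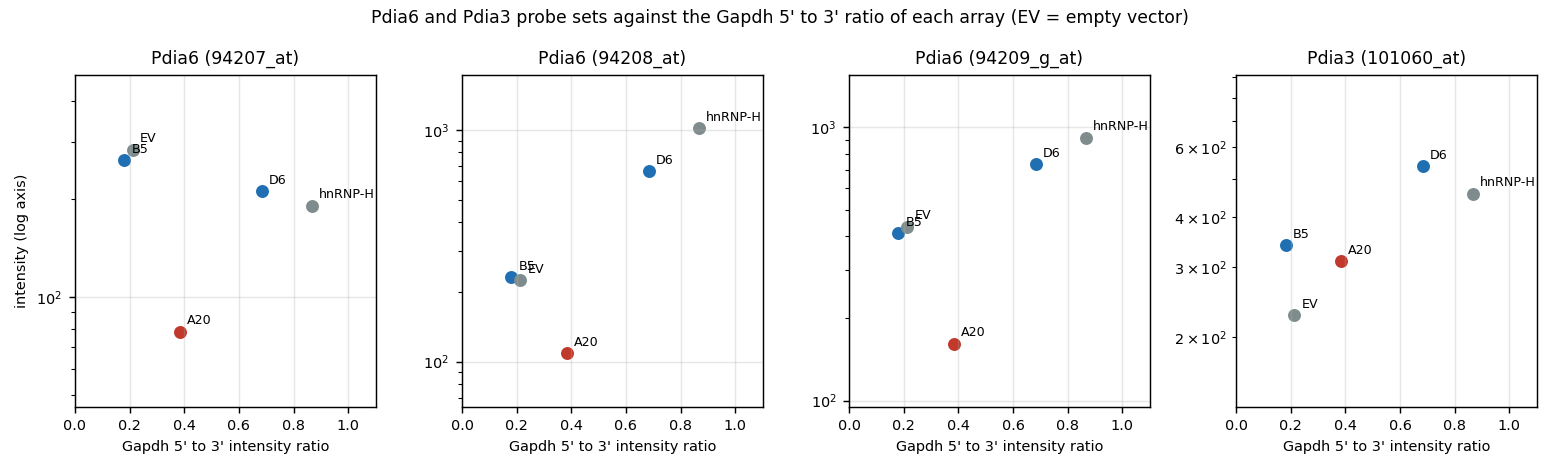
Quantile-normalised intensity (log axis) of the 3 Pdia6 probe sets and of Pdia3 against the Gapdh 5' to 3' intensity ratio of the same array, 1 labelled point per array (EV, empty vector). For Pdia6 94208_at and 94209_g_at the AxJ arrays of ratio 0.683 and 0.866 lie above those of 0.181 and 0.212, for 94207_at they lie below, and A20, at 0.384, is the lowest in the Pdia6 panels.

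The genes also differed among themselves in how closely they followed their common pattern, the median of the 9 measured genes over the 5 arrays after each was centred on its mean. Hspa5 (root mean square distance 0.232 log2 units), Creld2 (0.262), Pdia4 (0.265), Hsp90b1 (0.273) and Sel1l (0.319) lay closest, Pdia6 was at 0.468, and Pdia3 (1.01) and Canx (1.14), in which A20 was not set apart, lay farther off. The distance of Fkbp11 (1.44) rests on an A20 value below the filter and depends on the added constant, so it has no place in this order. Among 6629 other genes, the nearest to the common pattern were Yap1 (0.0888), a transcriptional coactivator of the Hippo pathway, Adcy6 (0.118), an adenylate cyclase, Ctsb (0.149), the lysosomal protease cathepsin B, Rhpn2 (0.159), a rhophilin, and Rell1 (0.162). The A20 values of Adcy6, Rhpn2 and Rell1 lay below the filter, so their distances also depend on the added constant and the order of these genes is not settled. The likeness is over 5 arrays, in which A20 sets most of the shape.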

How the data were processed

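Messenger RNA of 5 mouse cell lines was measured on 1 Affymetrix array each. Per the labels' protocols, RNA was extracted with Ultraspec, selected on an oligo dT column and labelled with biotin. The deposited values are linear intensities, 1 per probe set and array. In them the mean of each array, trimmed by 2% at each end, was about 150.1. The software behind them is not given in the sources used here. Array medians ran from 33.9 in A20 to 41.7 in empty vector, and A20 lay at -11.6% from their mean, so arrays were quantile normalised. Levels are these intensities unless named otherwise. Apart from the marker sums, which add the intensities of different probe sets, no probe set's level was set against another's. No pair of arrays held identical values, and the small number of arrays limits the precision.

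Differences were taken between values of log2(intensity + 6.55), a scale which understates the change of dim probe sets. After 66 control probe sets were left out, 9108 whose highest value exceeded 21.8, the 40th percentile, were kept. The model of limma 3.58.1 (R 4.3.3), fitted by lmFit and moderated by eBayes along an intensity trend, had 3 coefficients, for A20, the 2 clones of hnRNP-F and the 2 AxJ controls. This left 2 residual degrees of freedom beside a prior of 6.51. The residual spread includes the gap between both controls, and A20, with 1 array, was taken to vary as the AxJ lines do. P-values are two-sided and Benjamini-Hochberg adjusted over the probe sets kept. No label speaks of repeated cultures, so p-values reflect the spread between these arrays, which may be technical. No exact test of 2 arrays against 2 can go below a p of 0.333. The fit was tested on simulated data.

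Symbols came from the array's annotation, updated to current names. Of 12488 probe sets 10855 had 1 symbol, 396 several and 1237 none. For gene lists, the probe set with the highest mean log2 value stood for each gene. Promoters are those of RefSeq on GRCm38.p6. The genes and lists were chosen with earlier results of these data known. Beside the 10 genes, the text names by rule up to 3 list genes with the largest A20 difference past the threshold and outside the AxJ range, the gene of each list with the largest hnRNP-F difference, and the 5 genes of nearest profile. Alternatives covered the added constant, the filter, the scaling, the intensity trend, 1 probe set per gene, the Gapdh ratio, the grouping and each AxJ array left out.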

Additional observations from a re-analysis of the deposited data

How the results depend on the processing

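All alternatives named above were run, and comparisons of A20 with arrays of like Gapdh ratio were added after seeing the data. No paired analysis was run, since no label ties arrays into pairs and each line has 1 array. In A20, no member probe set that fell changed direction, and those of Hsp90b1, Pdia4 and Sel1l stayed past the threshold in every alternative that tested them (Fkbp11 had to differ through the filter). Hspa5 (adjusted p = 0.0629) and Creld2 (adjusted p = 0.0518) missed it without the intensity trend, each at the top of its range over the alternatives (from 0.000399 and 6.29e-05), which left 5 member calls, against 10 with the Gapdh covariate or against the hnRNP-H line and D6 alone, 6 at 1 probe set per gene and 7 to 9 elsewhere. Pdia6 94207_at also passed in the authors' scaling and without the hnRNP-H array, and with 94209_g_at against all 4 AxJ lines. The hnRNP-F clones had 0 member calls in every setting. Over all probe sets A20 calls numbered 536, but 309 without the filter, 146 without the trend, 242 without B5, 254 without D6, 326 without empty vector, 248 against empty vector and B5, and 1665 against the hnRNP-H line and D6. The split was 273 lower and 263 higher, but 191 and 358 under median scaling. The median of all probe sets moved between -0.14 in the authors' scaling and 0.06 under median scaling. Genes of the other lists past the threshold in A20 numbered 13, but 6 without the filter, 8 under median scaling, 2 without the trend, 21 with the Gapdh covariate, 41 against the hnRNP-H line and D6, 5 against empty vector and B5, and 4 to 15 with an array left out, so single calls there depend on the setting. Member probe sets 2-fold apart between D6 and B5 numbered 2 without the filter, in the authors' scaling and under median scaling, and 0 at 1 probe set per gene, where the hnRNP-H line and empty vector had 1.

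The values that changed sign passed no threshold with either sign. In A20, Pdia3 turned to 0.043 in the authors' scaling, 0.26 under median scaling, 0.0076 with the Gapdh covariate and 0.15 against empty vector and B5, with -0.56 to 0.44 over the arrays left out. Qsox1 turned to -0.19 in the authors' scaling and -0.022 under median scaling (-0.22 to 0.37 over the arrays left out), Atp2a2 to 0.037 against empty vector and B5, and Canx 94886_at ran from -0.051 to 0.13 over the arrays left out and to 0.34 at most over all alternatives. In the hnRNP-F clones, the Gapdh covariate turned Pdia6 94207_at to -0.047 and Sel1l 92870_at to 0.013. With an array left out, the hnRNP-F difference ran from -0.10 to 0.90 for Pdia3, -0.26 to 0.30 for Pdia6 94207_at, -1.36 to 0.79 for 94208_at, -0.73 to 0.34 for 94209_g_at, -0.17 to 0.25 for Canx 160180_at, -0.56 to 0.077 for Canx 94886_at, -0.38 to 0.25 for Sel1l 92870_at and -0.023 to 0.26 for Fkbp11. It also ran from -0.36 to 0.26 for Pdia5, -0.088 to 0.56 for Prdx4, -0.23 to 0.39 for Erp44, -0.10 to 0.52 for Ppib, -0.27 to 0.52 for Dad1, -0.061 to 0.14 for Ddost, -0.31 to 0.060 for Rpn2, -0.90 to 0.21 for Itpr2, -0.18 to 0.36 for Nucb1, -1.46 to 0.041 for Atp2a2 and -0.13 to 0.037 for Cct4. The cause of these changes was not tested. The sources used here give no background level per probe set, so values under the filter of 21.8 have no order. Such values include all those of Calr, the A20 values of Fkbp11, Pdia5 and Prdm1, and the AxJ values of Itpr2.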
